A study of Ovis aries with 6 samples.

Results

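Of the 33609 genes listed for the choroid plexus of the ewe, 10 genes of the SLC16 family of monocarboxylate transporters are described here. They were taken by gene symbol from a list of 10 names. SLC16A5, SLC16A8 and the carriers of thyroid hormone, which belong to the same family, are not among the 10. The 10 genes and their identifiers were SLC16A1 (443456), SLC16A3 (101111643), SLC16A4 (101110981), SLC16A6 (101116069), SLC16A7 (101113834), SLC16A9 (101120546), SLC16A11 (101117346), SLC16A12 (101102689), SLC16A13 (101114882) and SLC16A14 (101105803). PolyA RNA was sequenced from 3 groups of ewes. The THX group had been thyroidectomised and was kept in long days (7 ewes), the Long group were controls in long days (8 ewes), and the Short group were controls in short days (8 ewes). RNA of 3 to 4 ewes was mixed in equal amounts into each pool, and each group had 2 pools, so every p-value below rests on the spread between pools, not on that between ewes.

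The choroid plexus epithelium secretes cerebrospinal fluid and stands between it and the blood. Proteins of the SLC16 family span the membrane of a cell many times. The best known of them move lactate, pyruvate and ketone bodies together with a proton, in the direction that the gradients set, and reach the surface with a partner protein, basigin or embigin. Other members carry creatine, carnitine or taurine, and some have no agreed substrate.

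The pools held 48282883 to 82100653 counts. The 15 listed markers of choroid plexus epithelium were detected and tested in these pools, and transthyretin (TTR) stood at 118872 and 140707 CPM in THX pools, 107613 and 109231 CPM in Long pools, and 86397 and 92709 CPM in Short pools. A CPM here is a count divided by the scaled library total of its pool and put on a common scale. HR, a corepressor whose gene responds to thyroid hormone, stood at 3.36 and 2.76 CPM in THX pools, against 23.7 and 23.4 CPM in Long pools. KLF9, whose transcription thyroid hormone also raises, stood at 36.1 and 34.1 CPM in THX pools, against 93.2 and 89.9 CPM in Long pools. On the first principal component of all tested genes THX pool 2 and Short pool 1 lay at the opposite ends (42.7 and −38.4), and on the second THX pool 1 lay lowest (−47.8). The red cell gene HBB was at 53.5 CPM in Long pool 2 and at 0.478 to 4.59 CPM in the other 5 pools. In pooled tissue, fewer cells of a type and less RNA per cell cannot be told apart.

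Of the 10 genes, 9 had enough counts to be tested. SLC16A9 fell in THX relative to Short pools and was the single member called in any of the 3 comparisons in the edgeR fit used here. SLC16A12 and SLC16A1 had their highest levels in the Short pools, without passing the test in that fit. SLC16A14 had its lowest in the THX pools and SLC16A6 its highest in the THX pools, also without passing. The other tested members, SLC16A3, SLC16A7, SLC16A11 and SLC16A13, did not pass in any comparison. Levels of different genes were not ranked, because transcript lengths were not used here.

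**Figure D1:**
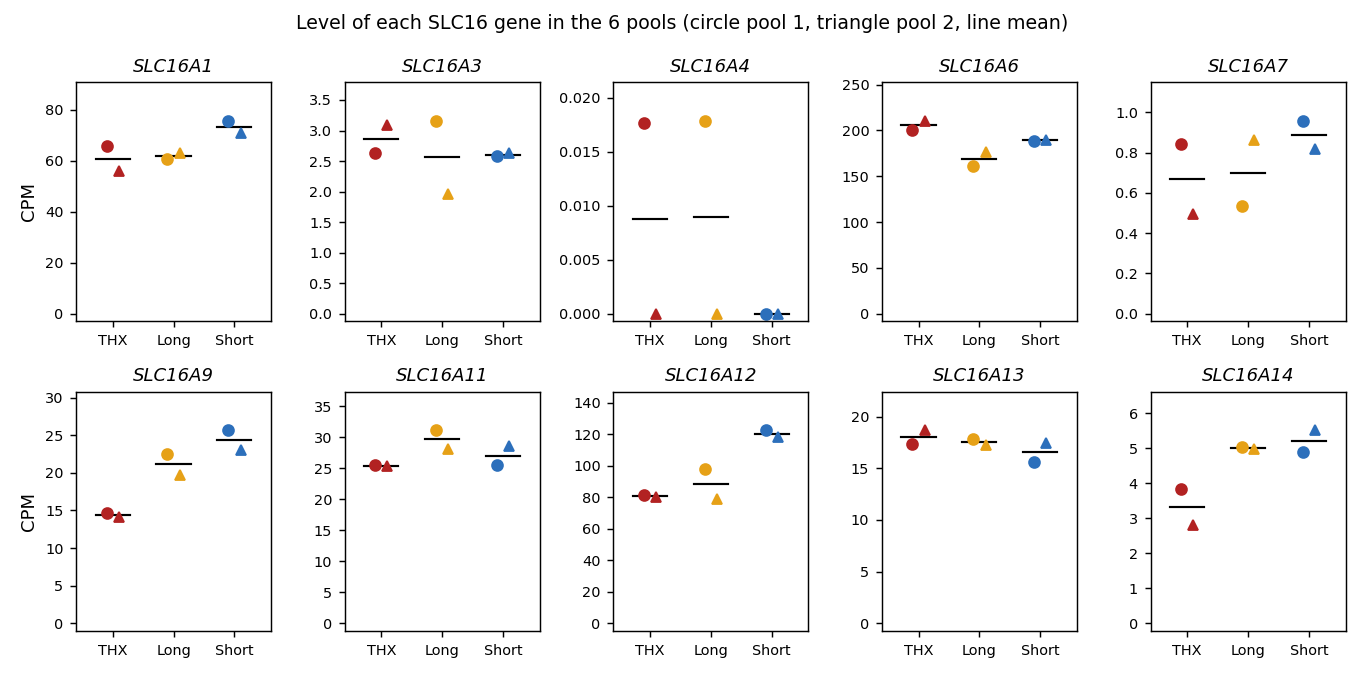
Level of each of the 10 SLC16 genes in CPM (y axis, a separate scale per gene) in the THX, Long and Short pools (x axis), with a circle for pool 1, a triangle for pool 2 and a line at the mean of the 2 pools. The SLC16A9 points of the THX group, at 14.7 and 14.1 CPM, lie below the other 4 points, and the SLC16A12 points of the Short group, at 123 and 118 CPM, lie above the other 4.

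The members known for lactate and pyruvate come first. SLC16A1, the broadly expressed proton-linked carrier of lactate, pyruvate and ketone bodies (MCT1), was at 65.7 and 55.9 CPM in THX pools, 60.8 and 63.3 CPM in Long pools, and 75.7 and 71.1 CPM in Short pools. The Short pools lay above the other 4, and the THX and Long pools overlapped. The log2 difference was −0.27 (SE 0.0972, adjusted p = 0.172) in THX against Short pools and −0.24 (SE 0.0972, adjusted p = 0.351) in Long against Short pools. In THX against Long pools it was −0.03, and the 95% interval of the fold ran from 0.835 to 1.15. Mature red cells are known to carry this transporter, and Long pool 2, the pool with the most HBB, stood at 63.3 CPM, within the range of the 4 long-day pools. The part of red cells in these values was not tested.

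SLC16A3, the carrier that exports lactate from glycolytic cells (MCT4), was at 2.64 and 3.09 CPM in THX pools, 3.16 and 1.97 CPM in Long pools, and 2.58 and 2.63 CPM in Short pools. These levels rested on 107 to 218 counts per pool. The Long pools spanned the other 4, and the fold in THX against Long pools was 1.12 with a 95% interval from 0.723 to 1.73. SLC16A7, the high-affinity carrier of pyruvate and lactate (MCT2), had low counts, with 48 and 33 in THX pools, 30 and 47 in Long pools, and 81 and 41 in Short pools. The levels were 0.845 and 0.497 CPM for THX, 0.535 and 0.865 CPM for Long, and 0.958 and 0.817 CPM for Short. Its fold in THX against Short pools was 0.751, with a 95% interval from 0.394 to 1.43. A fall of the size seen for SLC16A9 lies inside this interval, as does no difference, so these pools do not tell them apart for SLC16A7.

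SLC16A11, a pyruvate carrier in human cells, and SLC16A13, a lactate carrier of mouse liver, are direct neighbours in the sheep reference annotation. SLC16A11 was at 25.5 and 25.4 CPM in THX pools, 31.1 and 28.2 CPM in Long pools, and 25.5 and 28.5 CPM in Short pools. Both THX pools lay below both Long pools (log2 difference −0.22, SE 0.0975, adjusted p = 0.572), and the Short pools overlapped both groups. SLC16A13 was at 17.3 and 18.7 CPM in THX pools, 17.8 and 17.3 CPM in Long pools, and 15.7 and 17.4 CPM in Short pools. Its groups overlapped in the 3 comparisons, with folds of 1.03 in THX against Long (95% interval 0.862 to 1.22), 1.06 in Long against Short (0.892 to 1.26) and 1.09 in THX against Short pools (0.915 to 1.30).

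Among the members known for other substrates, SLC16A9, a carrier of carnitine in human cells (MCT9), was the member that was called. It was at 14.7 and 14.1 CPM in THX pools, 22.6 and 19.7 CPM in Long pools, and 25.7 and 23.0 CPM in Short pools. The THX pools lay below the 4 pools with an intact thyroid, and both Long pools lay below both Short pools. SLC16A9 fell 1.69-fold in THX relative to Short pools (14.4 ± 0.415 against 24.3 ± 1.89 CPM, SD, n = 2 pools each, log2 difference −0.76, SE 0.113, adjusted p = 0.0399). It ranked 126 by p among the 18019 genes tested in that comparison. THX and Short pools differ in both thyroid and day length, whose parts cannot be told apart in this comparison. In THX against Long pools, at the same day length, the means were 14.4 ± 0.415 and 21.1 ± 2.01 CPM (log2 difference −0.55, SE 0.113, adjusted p = 0.171). This difference did not pass in the edgeR fit used here, and DESeq2 called it (adjusted p = 0.00564). In Long against Short pools the log2 difference was −0.20 (SE 0.112, adjusted p = 0.432). The THX against Short and THX against Long comparisons share the THX pools.

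The call for SLC16A9 in THX against Short pools was kept without THX pool 1 (adjusted p = 0.0414). It was lost without THX pool 2 (adjusted p = 0.117), Long pool 1 (0.0992), Long pool 2 (0.0981), Short pool 1 (0.217) or Short pool 2 (0.102), at log2 differences from −0.83 to −0.67 in the 6 fits that left out 1 pool. Markers of other cells differed between the same groups. The 12 fibroblast and leptomeningeal markers summed to 1297 and 1413 CPM in THX pools, against 1667 and 1854 CPM in Short pools. The largest part of this sum was IGF2, at 494 and 382 CPM in THX pools, against 619 and 531 CPM in Short pools. Of the 11 tested fibroblast and leptomeningeal markers, 2 were above and 9 below 0, with a median log2 difference of −0.44. By edgeR 1 of them was called lower, where 0.599% of all genes were. The ependymal markers summed to 638 and 735 CPM in THX pools, against 511 and 515 CPM in Short pools. Most of the ependymal sum was FOXJ1, at 432 and 496 CPM in THX pools, against 331 CPM in both Short pools. Of the 7 tested ependymal markers, 7 were above 0 and 0 were called, where 49% of all tested genes were above 0. The 15 epithelial markers, without regard to their level, had 4 above and 11 below 0 in THX against Short pools, with a median log2 difference of −0.11. Of these, 0 were called higher and 3 lower (HTR2C, KL and CAB39L), where 0.599% of all genes were called lower. The sum of the epithelial markers, most of which was TTR, ran the other way. It was 125745 and 147661 CPM in THX pools, against 95479 and 101038 CPM in Short pools. Markers of pericytes and smooth muscle summed to 1120 and 1302 CPM in THX pools, against 1322 and 1603 CPM in Short pools. Those of astrocytes and neurons summed to 433 and 413 CPM in THX pools, against 387 and 385 CPM in Short pools. Most of that sum was SNAP25 (318 and 324 CPM in THX, 298 and 286 CPM in Short pools). Of the 9 tested astrocyte and neuron markers, 7 were above and 2 below 0, with 0 called. Pituitary markers summed to 714 and 241 CPM in THX pools, against 212 and 73.6 CPM in Short pools. Most of the pituitary sum was PRL (588 and 201 CPM in THX, 133 and 50.6 CPM in Short pools). Oligodendrocyte markers summed to 107 CPM in both THX pools, against 118 and 119 CPM in Short pools, pineal and retinal markers to 71.3 and 76.1 CPM in THX pools, against 90.5 and 78.1 CPM in Short pools, and red cell markers to 4.14 and 4.59 CPM in THX pools, against 0.509 and 0.478 CPM in Short pools. The sums for endothelium and macrophages overlapped between these groups. In none of the lists was a listed marker at 0 in the 6 pools. The part of these shifts in the SLC16A9 difference was not tested.

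SLC16A12, a creatine carrier (MCT12) whose gene is altered in a human cataract, was at 81.3 and 80.4 CPM in THX pools, 98.2 and 79.1 CPM in Long pools, and 123 and 118 CPM in Short pools. The 4 long-day pools lay below both Short pools, and the THX and Long pools overlapped. The log2 difference was −0.58 in THX against Short pools (SE 0.108, adjusted p = 0.0659), −0.44 in Long against Short pools (SE 0.108, adjusted p = 0.342) and −0.13 in THX against Long pools (SE 0.108, adjusted p = 0.844). None of these passed in the edgeR fit used here. The THX against Short difference passed in edgeR with no filter on low counts (adjusted p = 0.0118). DESeq2 called the Long against Short and the THX against Short differences (adjusted p = 0.0408 and 0.000183, at −0.44 and −0.57 on the log2 scale). The log2 difference of Long against Short pools was −0.61 without Long pool 1 and −0.29 without Long pool 2. In the reference annotation SLC16A12 overlaps LOC114110280, whose log2 difference was −0.24 in THX against Short and −0.53 in Long against Short pools without passing (adjusted p = 0.605 and 0.391). Whether SLC16A12 and LOC114110280 share reads was not tested.

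SLC16A6 (MCT7), a taurine carrier in mice that exports ketone bodies from the liver in zebrafish, was at 201 and 210 CPM in THX pools, 161 and 176 CPM in Long pools, and 189 and 190 CPM in Short pools. The 3 groups did not overlap, with the THX pools highest and the Long pools lowest. The means were 206 ± 6.80 CPM in THX and 169 ± 10.8 CPM in Long pools (log2 difference 0.29, SE 0.0761, adjusted p = 0.277), a fold of 1.22 with a 95% interval from 1.08 to 1.38 before adjustment. By DESeq2 the adjusted p was 0.0492. The log2 difference was −0.17 in Long against Short pools and 0.12 in THX against Short pools (adjusted p = 0.376 and 0.374). SLC16A6 overlaps ARSG in the reference annotation, and the log2 difference of ARSG in THX against Long pools was −0.18. Whether SLC16A6 and ARSG share reads was not tested.

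SLC16A14 and SLC16A4 are members without an agreed substrate. SLC16A14 was at 3.84 and 2.80 CPM in THX pools, 5.03 and 4.99 CPM in Long pools, and 4.88 and 5.52 CPM in Short pools. Both THX pools lay below the other 4, and the Long and Short pools overlapped. The log2 difference was −0.59 in THX against Long pools (SE 0.205, adjusted p = 0.435) and −0.65 in THX against Short pools (SE 0.204, adjusted p = 0.143), and neither passed. In THX against Long pools it was −0.38 without THX pool 2 and −0.84 without THX pool 1. SLC16A4 had 1 and 0 counts in THX pools, 1 and 0 in Long pools, and 0 in both Short pools, and was not tested. A count of 0 allows up to 3 counts, which is 0.0355 to 0.0598 CPM over the pools at 0, and this limit covers counting error only. It does not apply to THX pool 1 and Long pool 1, which had 1 count each.

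**Figure D2:**
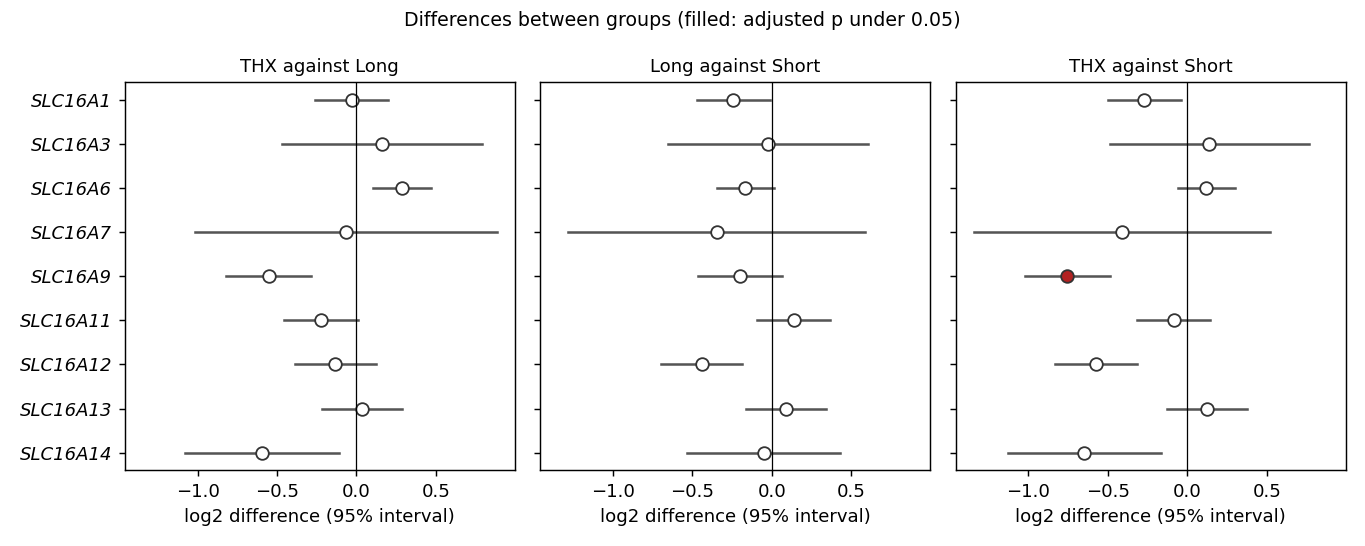
Log2 difference (x axis) of the 9 tested SLC16 genes (y axis) in THX against Long, Long against Short and THX against Short pools, with the 95% interval before adjustment as a line and genes with an adjusted p under 0.05 filled. SLC16A9 in THX against Short pools, at −0.76, is the filled point, and the intervals of SLC16A7 are the widest.

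The comparison of THX with Long pools asks what loss of the thyroid does at a constant day length. Counted over the family, it gave 0 of 9 members called by edgeR, where 0.283% of all 18019 tested genes were called. DESeq2 called 2, SLC16A6 and SLC16A9, in opposite directions, where it called 2.49% of all genes, and limma-voom called 0, where it called 0.25%. At an unadjusted p under 0.05 edgeR counted 3 of 9, SLC16A6, SLC16A9 and SLC16A14, where 9.08% of all genes did. The pools did not overlap in 4 of 9 members, against 37.2% of all genes. The median log2 difference of the 9 was −0.07, with 3 above and 6 below 0, and that of all tested genes was 0.0011.

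The comparison of Long with Short pools asks what day length does with the thyroid intact. It gave 0 of 9 members called by edgeR, where 0% of all genes were called. DESeq2 called 1, SLC16A12, where it called 0.882% of all genes, and limma-voom called 0, where it called 0%. The unadjusted p was under 0.05 in 2 of 9, SLC16A1 and SLC16A12, against 13.8% of all genes, and the pools did not overlap in 4 of 9, against 53.5%. The median log2 difference was −0.17, with 2 above and 7 below 0, and that of all genes was −0.0025.

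THX against Short pools gave 1 of 9 members called, SLC16A9, where 0.916% of all genes were called and 0.599% were called in the downward direction. DESeq2 called 2, SLC16A9 and SLC16A12, where it called 9.77% of all genes, and limma-voom called SLC16A9, where it called 0.977%. The unadjusted p was under 0.05 in 4 of 9, against 22.6% of all genes, and the pools did not overlap in 6 of 9, against 52.5%. The median log2 difference was −0.27, with 3 above and 6 below 0, and that of all genes was −0.0081. The shares whose pools do not overlap are near those of all genes in the 3 comparisons.

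SLC16A10, a carrier of aromatic amino acids and thyroid hormone in the same family, was called in no comparison. It averaged 141 ± 7.01 CPM in the THX group, 134 ± 10.6 CPM in the Long group and 164 ± 18.4 CPM in the Short group (SD, n = 2 pools each).

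Over the 7 partner lists, with 3 to 21 tested genes each, the edgeR fit used here called 2 genes. They were OXCT1 of the ketone body list and LOX of the hypoxia list. Neither gene kept its calls in every fit that left out 1 pool. Of all genes, edgeR called 0.283% in THX against Long, 0% in Long against Short and 0.916% in THX against Short pools. Basigin (BSG), the partner of SLC16A1 and SLC16A3, was at 2396 and 2802 CPM in THX pools, 2691 and 2784 CPM in Long pools, and 2279 and 2412 CPM in Short pools, and was called in no comparison. Embigin (EMB), the partner of SLC16A7 in rat, was at 138 and 109 CPM in THX pools, 107 and 83.2 CPM in Long pools, and 147 and 134 CPM in Short pools. Its log2 difference was 0.37 in THX against Long and −0.56 in Long against Short pools (adjusted p = 0.534 and 0.342), and DESeq2 called the day length difference (adjusted p = 0.0459). Both Long pools lay below the other 4. NPTN, a relative of basigin, differed by −0.09 on the log2 scale in THX against Long pools. At an unadjusted p under 0.05 edgeR counted 1, 1 and 0 of these 3 genes in THX against Long, Long against Short and THX against Short pools, where 9.08%, 13.8% and 22.6% of all genes did. Of 4 tested other carriers, SLC16A5, SLC16A10 and the mitochondrial pyruvate carrier subunits MPC1 and MPC2, edgeR and DESeq2 called 0. DESeq2 called 2.49%, 0.882% and 9.77% of all genes in the same comparisons. At an unadjusted p under 0.05 edgeR counted 0, 2 and 1 of the 4, against 9.08%, 13.8% and 22.6% of all genes. For each of the 7 partner lists, limma-voom gave the same number of calls as edgeR.

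OXCT1, the mitochondrial enzyme that starts the use of ketone bodies, was at 170 and 157 CPM in THX pools, 263 and 258 CPM in Long pools, and 294 and 269 CPM in Short pools. The THX pools lay below the other 4. OXCT1 fell 1.59-fold in THX relative to Long pools (log2 difference −0.67, SE 0.0802, adjusted p = 0.0336) and 1.72-fold in THX relative to Short pools (log2 difference −0.78, SE 0.0803, adjusted p = 0.0201). The call against Long pools was lost in each of the 6 fits that left out 1 pool, with adjusted p from 0.0616 to 0.296 and log2 differences from −0.73 to −0.61. The call against Short pools was kept without THX pool 1, THX pool 2 or Short pool 2 (adjusted p = 0.031, 0.0444 and 0.0483), and lost without Long pool 1, Long pool 2 or Short pool 1 (0.0755, 0.0766 and 0.127). In THX against Long pools, too, markers of other cells differed. Macrophage markers summed to 213 and 223 CPM in THX pools, against 251 and 265 CPM in Long pools. Of the 8 tested macrophage markers, 8 were below 0 and 0 were called, where 50.3% of all tested genes were above 0. Fibroblast and leptomeningeal markers summed to 1297 and 1413 CPM in THX pools, against 1601 and 1480 CPM in Long pools. The largest part of this sum, IGF2, was at 494 and 382 CPM in THX pools, against 408 and 381 CPM in Long pools. Of the 11 tested fibroblast and leptomeningeal markers, 3 were above and 8 below 0, with a median log2 difference of −0.37. By edgeR 1 of them was called lower, where 0.283% of all genes were called in either direction. Ependymal markers summed to 638 and 735 CPM in THX pools, against 612 and 522 CPM in Long pools. Most of this was FOXJ1, at 432 and 496 CPM in THX pools, against 393 and 323 CPM in Long pools. Of the 7 tested ependymal markers, 6 were above and 1 below 0, with 0 called. Pericyte and smooth muscle markers summed to 1120 and 1302 CPM in THX pools, against 1379 and 1339 CPM in Long pools. Astrocyte and neuron markers summed to 433 and 413 CPM in THX pools, against 371 and 397 CPM in Long pools. Most of that was SNAP25 (318 and 324 CPM in THX, 282 and 306 CPM in Long pools). Pituitary markers summed to 714 and 241 CPM in THX pools, against 35.4 and 146 CPM in Long pools. Of the pituitary sums, PRL made up 588 and 201 CPM in THX pools, and 19.3 and 50.1 CPM in Long pools. Epithelial markers summed to 125745 and 147661 CPM in THX pools, against 115550 and 117336 CPM in Long pools, while 8 of the 15 were below 0. By edgeR 2 of the 15, HTR2C and CAB39L, were called lower, where 0.283% of all genes were called in either direction. Oligodendrocyte markers were at 107 CPM in both THX pools, against 109 and 122 CPM in Long pools, and the sums for endothelium, red cells and the pineal gland and retina overlapped. The part of these shifts, and of those given for SLC16A9, in the OXCT1 differences was not tested. OXCT1 was the 1 called member of 6 tested ketone body genes in either comparison, where 0.283% of all genes were called against Long and 0.916% against Short pools, and BDH1, which converts between the ketone bodies, had a log2 difference of −0.33 in THX against Long pools (adjusted p = 0.346).

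The 21 tested genes of lactate and pyruvate metabolism had 0 called by edgeR in the 3 comparisons. At an unadjusted p under 0.05 they had 5 in THX against Long, 1 in Long against Short and 9 in THX against Short pools, where 9.08%, 13.8% and 22.6% of all genes did. DESeq2 called 2, 0 and 7 of the 21, and 2.49%, 0.882% and 9.77% of all genes. LDHA, the lactate dehydrogenase subunit of glycolytic tissue, was at 146 and 220 CPM in THX pools, 150 and 176 CPM in Long pools, and 132 and 110 CPM in Short pools, and its log2 difference between THX and Short was 0.60 (adjusted p = 0.151). LDHB, the subunit of oxidative tissue, was at 1169 and 1176 CPM in THX pools, 1159 and 1317 CPM in Long pools, and 1073 and 1139 CPM in Short pools. PC, which makes oxaloacetate from pyruvate, and PDK3, which restrains pyruvate dehydrogenase, differed by 0.36 and −0.50 on the log2 scale in THX against Long and by 0.42 and −0.62 in THX against Short pools. Their adjusted p by edgeR was 0.201 and 0.247 against Long, and 0.0659 and 0.0721 against Short pools. DESeq2 called both against Long pools (adjusted p = 0.00974 and 0.0136).

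The substrates of SLC16A9 and SLC16A12 have their own lists. Of 11 tested genes of carnitine metabolism and transport, 0 were called by edgeR in the 3 comparisons, with 3, 1 and 4 at an unadjusted p under 0.05 in THX against Long, Long against Short and THX against Short pools, where 9.08%, 13.8% and 22.6% of all genes did. DESeq2 called 0, 0 and 3 of the 11, and 2.49%, 0.882% and 9.77% of all genes. CPT2, which frees acyl groups from carnitine in mitochondria, had a log2 difference of −0.31 in THX against Long and −0.40 in THX against Short pools (adjusted p = 0.264 and 0.0721). The carnitine importer SLC22A5 was at 83.1 and 69.6 CPM in THX pools, against 60.8 and 62.0 CPM in Long pools (log2 difference 0.31, adjusted p = 0.445), opposite in sign to SLC16A9. Of 5 tested genes of creatine synthesis and transport, 0 were called by edgeR, with 0, 2 and 1 at an unadjusted p under 0.05 in the same comparisons, and DESeq2 called 0, 0 and 1, against the same shares of all genes. GAMT, which completes creatine, had a log2 difference of 0.40 in Long against Short pools, and the creatine importer SLC6A8 one of 0.18, opposite in sign to SLC16A12 at −0.44 (adjusted p = 0.342, 0.361 and 0.342).

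The 19 tested hypoxia-inducible genes, a group to which SLC16A3 is known to belong, had 0 called in THX against Long pools by edgeR, 0 in Long against Short and 1 in THX against Short pools, where 0.283%, 0% and 0.916% of all genes were called. At an unadjusted p under 0.05 they had 3, 2 and 5, where 9.08%, 13.8% and 22.6% of all genes did, and DESeq2 called 1, 0 and 2, and 2.49%, 0.882% and 9.77% of all genes. LOX, a matrix crosslinking enzyme, was the called member, at 8.34 and 6.96 CPM in THX pools, against 16.1 and 15.3 CPM in Short pools. Its log2 difference was −1.04 (adjusted p = 0.0306), and the call was kept without THX pool 1 (adjusted p = 0.033) and lost without each of the other 5 pools (0.0699 to 0.17). Fibroblasts also make LOX, and the fibroblast markers were lower in THX than in Short pools by the sums given for SLC16A9. The part of fibroblasts in this difference was not tested.

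**Figure D3:**
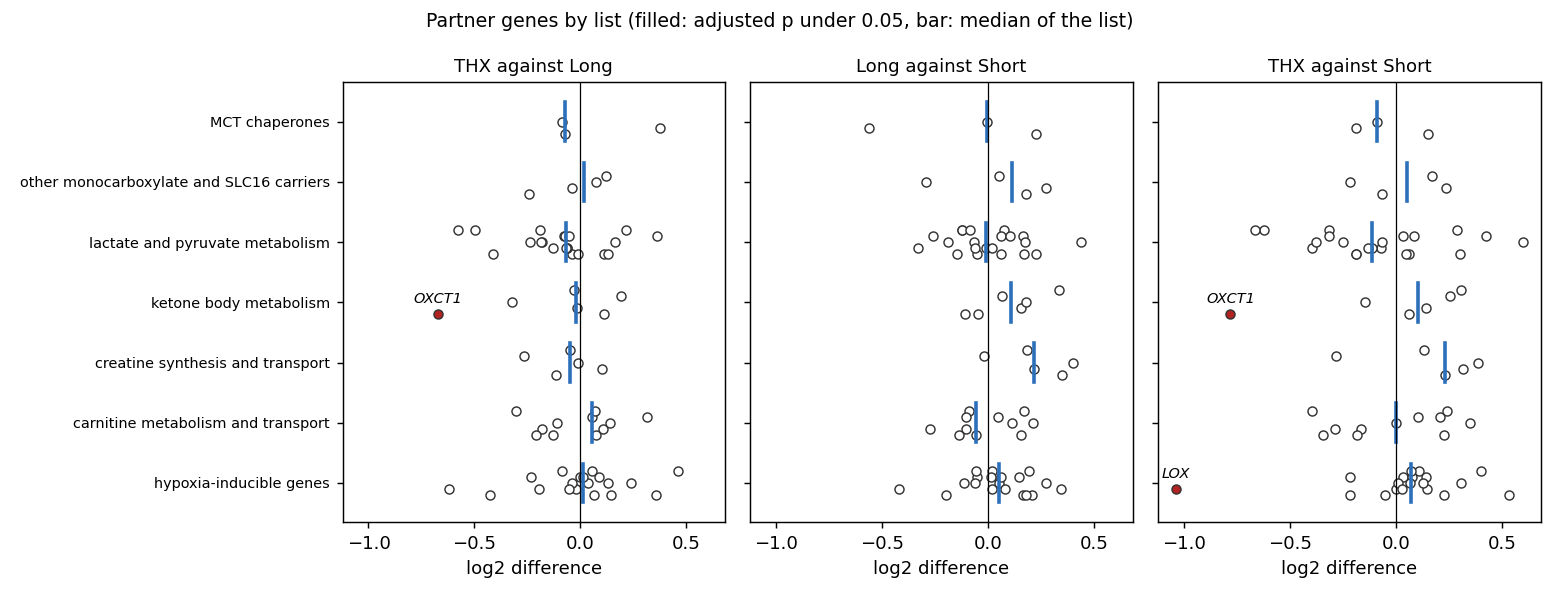
Log2 difference (x axis) of each tested partner gene in 7 lists (y axis) in THX against Long, Long against Short and THX against Short pools, with genes whose adjusted p is under 0.05 filled and named and a bar at the median of each list. OXCT1 is filled in both comparisons with THX pools, LOX in THX against Short pools, and no gene in Long against Short pools.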

How the data were processed

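The authors deposited unnormalised counts, 1 whole number per gene and pool. The submitters' processing notes name TopHat2 2.1.1 and featureCounts 2.0.0, with SAMtools 1.9, bcl2fastq 2.20, FastQC 0.11.8 and MultiQC 1.9. The kit was stranded, per the labels. Neither the genome build nor the strand setting used in counting is given in the sources used here. Counts of members that overlap another gene in the reference table (SLC16A3, SLC16A4, SLC16A6 and SLC16A12) are therefore uncertain, and no positions were used. The 10 members matched that table by identifier.

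The whole table was fitted in R 4.3.3 with the quasi-likelihood method of edgeR 4.0.16, using its default expression filter, TMM factors and a mean for each of the 3 groups over 6 pools (3 residual and 3.96 prior degrees of freedom). Two-sided tests were adjusted by Benjamini and Hochberg over 18019 genes and called at an adjusted p under 0.05. The SE is the absolute log2 difference divided by the square root of F. Between the 2 pools of a group, counts varied on average over genes 71.4 (THX), 16.2 (Long) and 28.5 (Short) times as much as counting alone would give. Genes with many counts weigh most in this average, so it is not the excess of a single member. Members, lists and the rule for naming genes (the 10 members, fixed partner genes, and up to 4 genes of lowest p per partner list) were chosen with earlier results of these data known, and 1 gene that they take was left out of the lists and is not reported here. Alternatives used DESeq2 1.42.0 and limma 3.58.1, other scalings and filters, a pool-number block and fits without 1 pool. The scripts were tested on simulated data. Plots used Python 3.11.15 and matplotlib 3.10.9.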

Additional observations from a re-analysis of the deposited data

How the results depend on the processing

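The number of SLC16 members called moved from 0 to 2 by DESeq2 in THX against Long pools, from 0 to 1 by DESeq2 in Long against Short pools, and in THX against Short pools from 1 to 2, SLC16A9 and SLC16A12, with no filter (adjusted p of SLC16A12 0.0118) and by DESeq2 (0.000183) and to 0 with only the 4 pools compared. It was 0 in each fit without 1 pool in THX against Long and Long against Short pools, and 0 to 1 in THX against Short pools. SLC16A9 in THX against Short pools had an adjusted p of 0.101 with only the 4 pools compared and 4.73e-06 to 0.217 over the 14 alternatives. With only those 4 pools, the OXCT1 calls (adjusted p = 0.0691 against Long and 0.0785 against Short pools) and the LOX call (0.0949) were lost too.

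Over all genes, the 51 calls in THX against Long pools became 204 with no filter, 448 by DESeq2, 22 with only the 4 pools compared and 2 to 37 without 1 pool. The 0 calls in Long against Short pools became 159 by DESeq2 and 0 to 4 without 1 pool. The 165 calls in THX against Short pools became 908 with no filter, 1761 by DESeq2, 11 with only the 4 pools compared and 10 to 1087 without 1 pool. The lists of lactate and pyruvate, carnitine, creatine and ketone body genes had up to 4, 1, 2 and 2 calls without THX pool 1 in THX against Short pools. With no filter the first 2 of these lists had 2 and 1 calls. The causes were not tested.

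The labels do not say that pool numbers pair pools across groups. Deviations of pools with the same number correlated at 0.067 (THX and Long), 0.211 (THX and Short) and −0.0586 (Long and Short) over genes. With the pool number as a replicate block, 2 members were called in THX against Short pools, SLC16A9 and SLC16A12 (adjusted p = 0.0267 and 0.0432), and 392 genes in all with 2 lactate and pyruvate genes among them. The block gave 0 members in both other comparisons, with 48 genes in all in THX against Long and 0 in Long against Short pools.

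None of the differences that changed sign had passed the test in the fit of the 6 pools. Without 1 pool, the log2 difference in THX against Long pools ran from −0.15 to 0.086 for SLC16A1, −0.14 to 0.54 for SLC16A3, −0.49 to 0.32 for SLC16A7, −0.28 to 0.031 for SLC16A12, −0.016 to 0.089 for SLC16A13, −0.19 to 0.032 for BSG, −0.16 to 0.43 for LDHA, −0.17 to 0.017 for LDHB, −0.0040 to 0.16 for SLC16A10 and −0.14 to 0.10 for GAMT. In Long against Short pools it ran from −0.40 to 0.28 for SLC16A3, −0.14 to 0.036 for SLC16A14, −0.13 to 0.052 for KLF9 and −0.075 to 0.066 for NPTN, which was also at 0.00040 with only the 4 pools compared. RLE and upper-quartile factors changed no call of a member and moved the median of all genes by at most 0.00585. With CPM from total counts, 7 of 30 member group means moved by over 1 SD. An order by level per length was not run, since transcript lengths were not used here.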

Other observations

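SLC16A5, which lies outside the 10 genes, was at 12.3 and 15.3 CPM in THX pools, 14.5 and 10.9 CPM in Long pools, and 10.6 and 14.1 CPM in Short pools, so the groups overlapped. SLC16A8, the lactate carrier of retinal pigment epithelium, had 0 to 2 counts per pool, and SLC5A8 had 0 to 5. SLC5A12 was listed at 0 in the 6 pools, which allows up to 0.0355 to 0.0598 CPM.

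SLC16A6 and SLC16A9 lay apart in opposite directions in THX pools. Their counts within a pool give a ratio that does not depend on the scaling of the library totals, and this pair was chosen after the values were seen, so no test is given. The ratio of SLC16A6 to SLC16A9 counts was 13.6 and 14.9 in THX pools, 7.13 and 8.93 in Long pools, and 7.35 and 8.24 in Short pools. The THX pools lay above the 4 pools with an intact thyroid. The choice of the pair fixed this order, since SLC16A6 was highest and SLC16A9 lowest in both THX pools. The ratios of the Long and Short pools overlapped.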
